A study of Oryza sativa with 12 samples.

Results

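Seeds of the high-lysine rice line HFL1 were compared with seeds of the high-lysine line GR14, using all 3 HFL1 and all 3 GR14 arrays out of 12 arrays in the series. In HFL1 the morning clock gene CCA1 was 18.8-fold higher, and 10 of 20 tested photosynthesis and chlorophyll genes, 8 of 23 shikimate and phenylpropanoid genes and 7 of 22 water channel genes were called higher, with 0, 1 and 1 called lower. Over all tested genes 5.24% were called higher and 2.98% lower, and without HFL1 array 1 the water channel count was 2. The evening clock genes PCL1 and GI, the stress kinase gene SAPK9, the jasmonate repressor gene JAZ2 and the seed maturation regulator gene VP1 were lower. Storage protein genes did not pass the test in either direction. For 93.1% of the called probe sets the mean of the line 35S-15 was nearer HFL1 than GR14, against 63.7% of all tested. For wild-type seeds the shares were 86.8% and 63.0%. These shares only describe, since the HFL1 and GR14 arrays chose the called probe sets.

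Transcript levels had been measured on an Affymetrix rice array in developing seeds of field-grown plants, with 4 groups of 3 arrays. Both lines compared here are labelled transgenic, with high lysine, and carry no further label of genotype, promoter or background variety. The remaining arrays were from the wild-type variety Wuxiangjiang9 (WT), labelled as having normal lysine, and from the transgenic line 35S-15, labelled as having high lysine. The labels place all seeds at 10 days after flowering, whereas the design text of the series states 15 days, and the values do not settle which holds. Earlier work on these lines, not the labels, describes GR14 as a line with reduced lysine breakdown, 35S-15 as a line with added lysine-synthesis enzymes and HFL1 as a combination of both. Each name stands for 1 line, so a difference between HFL1 and GR14 may belong to the transgenes, to the insertion events or to the growth of these plants, and these cannot be told apart. The labels do not say that the 3 arrays of a line came from separate plants. The p-values set the difference between the lines against the scatter of these arrays, and that scatter may be technical. The labels also give no hour of collection.

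Lysine is made in plants from aspartate, in plastids, by a pathway that also leads to threonine and methionine, and it is broken down in developing seeds by a bifunctional enzyme of the saccharopine route. The plant clock is a loop in which CCA1, a transcription factor with its peak around dawn, and evening-phased genes such as GI, PRR1 and PCL1 repress or activate one another. A developing rice grain holds a green pericarp, starchy endosperm, aleurone and embryo. The whole seed was extracted, so fewer cells of a type and less RNA per cell cannot be told apart in any value given here.

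Signals are MAS5 intensities per probe set, scaled by the authors so that every array had the same trimmed mean, and they are given as log2 signal. Testing was limited to the 28904 of 57381 probe sets whose signal exceeded the median of the array on 3 or more of the 6 arrays, after the AFFX and RPTR control probe sets had been set aside. Spearman correlations over these probe sets were 0.956 to 0.974 within a line and 0.921 to 0.945 between the lines. The lines were separated by the first principal component (42.4% of the variance). GR14 array 3 and HFL1 array 2 stood apart from the others of their line on the second component, with 19.6%. GR14 array 3 also had the highest difference between the 3' and 5' probe sets of the actin control transcript, at 6.43 on the log2 scale against 5.18 to 5.23 in the other 5 arrays. The same held for both GAPDH controls, at 3.87 against 1.55 to 2.73 and at 4.21 against 2.35 to 3.33. It held too for the dap, lys and phe controls, at 4.22, 1.61 and 2.10 against at most 3.50, 0.65 and 0.46. For the bioD and cre controls GR14 array 3 was highest as well, at 1.002 and 0.047 against at most 0.894 and 0.037. GR14 array 3 was not highest for the ef1a, thr, bioB, bioC, TrpnX and Cyph controls. The part of RNA quality, or of these control differences, in the results was not tested. Calls that end when 1 array is left out are given beside the gene or list.

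Differences between the lines were widespread. In limma's moderated test, 1890 probe sets, or 6.54% of those tested, passed a Benjamini-Hochberg adjusted p of 0.05. Of these, 1125 (3.89%) were higher and 765 (2.65%) lower in HFL1, and 1174 (4.06%) also differed at least 2-fold, 763 of them higher and 411 lower. The difference was at least 8-fold for 114 probe sets, 63 higher and 51 lower. The median log2 fold over all tested probe sets was -0.0255. In all 1890 the 3 HFL1 values lay wholly above or wholly below the 3 GR14 values, as they did in 27.7% of the tested probe sets. An unadjusted p under 0.05 was reached by 6333 probe sets, and chance alone would give 1445. The number of calls depended on single arrays. It was 825 without HFL1 array 1, 1016 without GR14 array 2, 1072 without HFL1 array 3 and 1150 without GR14 array 1, against 1751 without HFL1 array 2 and 1939 without GR14 array 3.

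**Figure D1:**
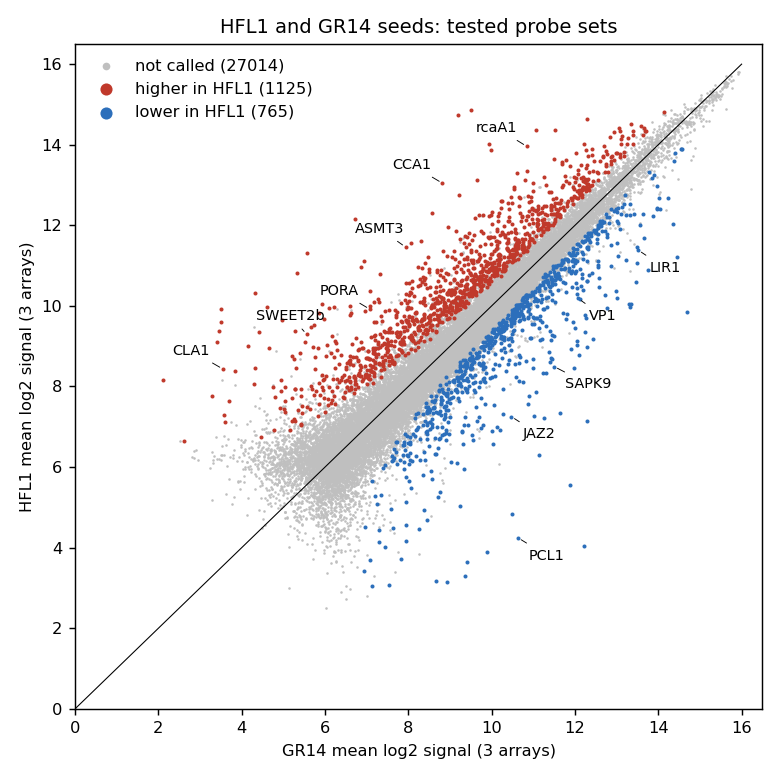
Mean log2 signal of each tested probe set in the 3 HFL1 arrays against that in the 3 GR14 arrays, with the diagonal marking equal levels. The 1125 probe sets called higher in HFL1 are red, the 765 called lower are blue, and CCA1 and PCL1 lie far from the diagonal on opposite sides.

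The array annotation gave 15771 tested genes, and each gene was represented by its probe set with the highest mean for the counts of gene groups. Of these genes 1297 (8.22%) were called, 827 (5.24%) higher and 470 (2.98%) lower, with a median log2 fold of -0.028, and the counts of each group below are to be read against these shares. The groups were chosen with earlier results of these data known and were not tested as groups. By chromosome the share of called genes ran from 7.28% on chromosome 2 to 10.6% on chromosome 10.

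Among the clock genes, the morning gene CCA1 was higher in HFL1 and the evening genes PCL1 and GI were lower. CCA1 had log2 signals of 9.09, 8.69 and 8.66 in the GR14 arrays and 13.29, 12.76 and 13.09 in the HFL1 arrays. PCL1, an evening-phased transcription factor gene, had 10.50, 10.54 and 10.87 in GR14 and 5.72, 2.14 and 4.87 in HFL1. GI, an evening-phased gene that links the clock to flowering, had 12.49, 12.58 and 12.58 in GR14 and 11.08, 11.24 and 11.02 in HFL1. None of the 3 genes overlapped between the lines, and CCA1 was low in every GR14 array while PCL1 and GI were high there. The difference, HFL1 minus GR14, was 4.23 ± 0.18 (SE, n = 3 arrays a line) for CCA1, -6.39 ± 0.76 for PCL1 and -1.44 ± 0.12 for GI, with limma adjusted p values of 3.48e-05, 0.00186 and 0.000377. The size for PCL1 is uncertain, since its HFL1 mean of 4.24 ± 1.87 (SD) lies below the mean of the HFL1 array medians, 5.93.

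PRR1, a pseudo-response regulator gene of the evening, had log2 signals of 10.65, 10.50 and 10.49 in GR14 and 10.06, 9.14 and 9.67 in HFL1. It was lower by 0.92 on the log2 scale in HFL1, from a log2 fold of -0.92 ± 0.22 (limma adjusted p 0.0439). This call ended when any array but HFL1 array 1 was left out, with adjusted p values of 0.0611 to 0.13. The day-phased pseudo-response regulator genes were not called. PRR37 had a log2 fold of -0.37 ± 0.18, PRR73 of 0.31 ± 0.33 and PRR95 of 0.11 ± 0.27 (limma adjusted p 0.27, 0.64 and 0.853). Another PRR37 probe set had 0.06 (adjusted p 0.968). A brighter PRR73 probe set, with means of 12.21 in HFL1 and 12.18 in GR14, had 0.03 ± 0.13 (adjusted p 0.937). The lines overlapped in these genes: PRR37 reached 10.41 in HFL1 array 2 and 10.41 in GR14 arrays 1 and 2, and PRR95 ran from 11.92 to 13.10 in GR14 around the HFL1 values of 12.37 to 12.62. In all, 1 of the 7 tested clock genes was higher and 3 were lower, with a median log2 fold of -0.37.

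**Figure D2:**
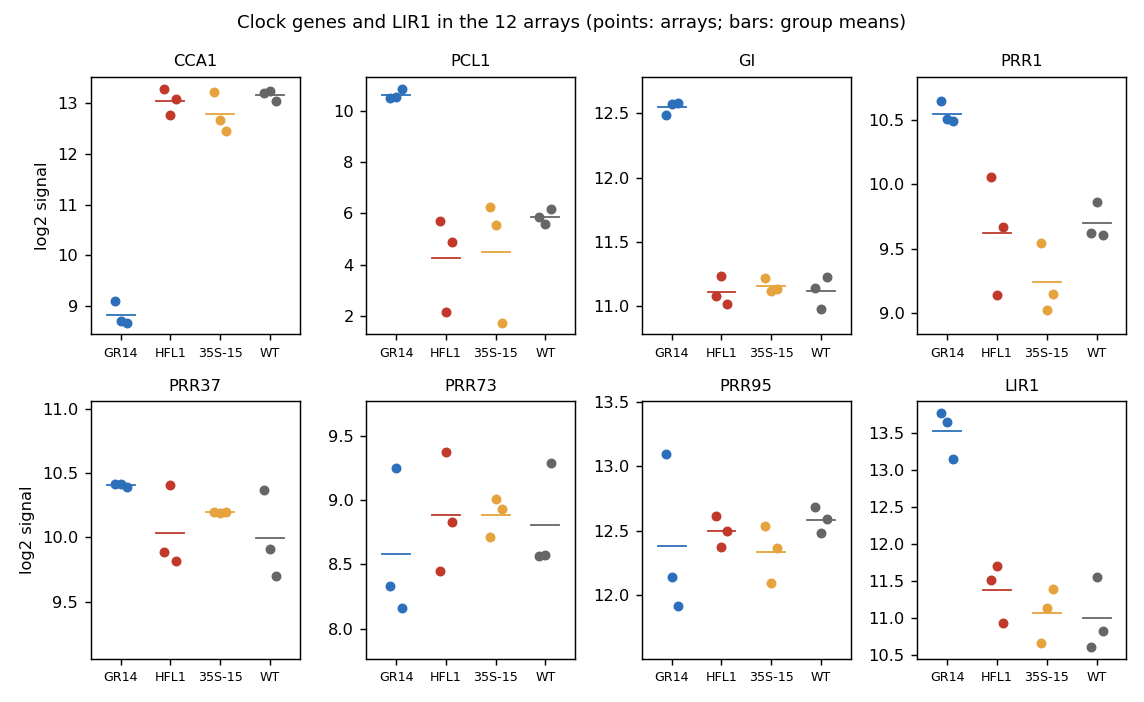
Log2 signal of 7 clock genes and LIR1 in each of the 12 arrays (points, 3 per group) with the group mean (bar), each panel on its own scale spanning at least 2 log2 units. CCA1 lies near 8.82 in GR14 and near 13.05 in HFL1, whereas PCL1, GI and LIR1 are highest in GR14, and PRR37, PRR73 and PRR95 overlap.

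The 35S-15 and WT arrays, which enter no test here, gave mean log2 signals of 12.78 and 13.17 for CCA1, 4.51 and 5.88 for PCL1, 11.16 and 11.12 for GI and 9.24 and 9.70 for PRR1. For CCA1, PCL1, GI and PRR1 alike these means lay closer to HFL1 than to GR14. LIR1, a light-regulated gene, was also highest in GR14, with log2 signals of 13.77, 13.64 and 13.15 there and 11.51, 11.71 and 10.93 in HFL1. Its log2 fold was -2.14 ± 0.23 (limma adjusted p 0.00107), and its 35S-15 and WT means were 11.06 and 11.00. SE5, a haem oxygenase gene needed for the phytochrome chromophore, was the remaining call among 11 light and photoperiod genes, with a log2 fold of 0.71 ± 0.17 (adjusted p 0.0431). The SE5 call ended when any single array other than GR14 array 1 was left out (adjusted p 0.0552 to 0.158). Neither of the flowering genes Hd3a and Hd1, with log2 folds of 0.94 and -1.06, passed (adjusted p 0.163 and 0.179).

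Of 20 tested genes of the photosynthetic apparatus, 10 were higher in HFL1 and none lower, with a median log2 fold of 0.84, and leaving out any 1 array gave 9 or 10 higher genes. rcaA1, for the activase of Rubisco, had log2 signals of 10.93, 10.67 and 10.92 in GR14 and 14.05, 14.12 and 13.71 in HFL1. PORA, for the light-dependent protochlorophyllide reductase of chlorophyll synthesis, had 7.42, 6.76 and 7.04 in GR14 and 9.71, 9.80 and 10.24 in HFL1. GLK1, for a transcription factor of chloroplast development, had 8.11, 7.13 and 7.34 in GR14 and 10.04, 9.94 and 9.72 in HFL1. In each of these 3 genes every HFL1 array was above every GR14 array. The log2 folds were 3.12 ± 0.15 for rcaA1, with the other 3 probe sets of the gene at 2.84, 3.31 and 3.72, 2.84 ± 0.24 for PORA and 2.37 ± 0.26 for GLK1 (limma adjusted p 5.74e-05, 0.000328 and 0.00133).

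RCABP89, for a chlorophyll-binding antenna protein, was higher by 2.37 ± 0.17 and CHLH, for a subunit of the magnesium chelatase of chlorophyll synthesis, by 1.74 ± 0.16 (adjusted p 0.000158 and 0.000469). A second probe set for CHLH read -0.06 on the log2 scale (adjusted p 0.906), so the probe sets of this gene disagree. The photosystem I subunit gene PSAG, the related factor gene GLK2, the binding protein gene RCABP69 and the reductase gene PORB had log2 folds of 2.15, 1.37, 1.38 and 1.11, all called. The Rubisco small subunit gene rbcS was called with a smaller log2 fold of 0.53. CHLI, for another chelatase subunit, had a log2 fold of 1.52 that did not pass, and the glycolate oxidase genes GLO1, GLO3, GLO4 and GLO5 lay between -0.22 and 0.31. The summed signal of the 20 genes, which also stand for the green pericarp, was 105200 to 109100 in the GR14 arrays and 156100 to 194300 in the HFL1 arrays, without overlap. A different share of green tissue in the seeds was not tested.

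**Figure D3:**
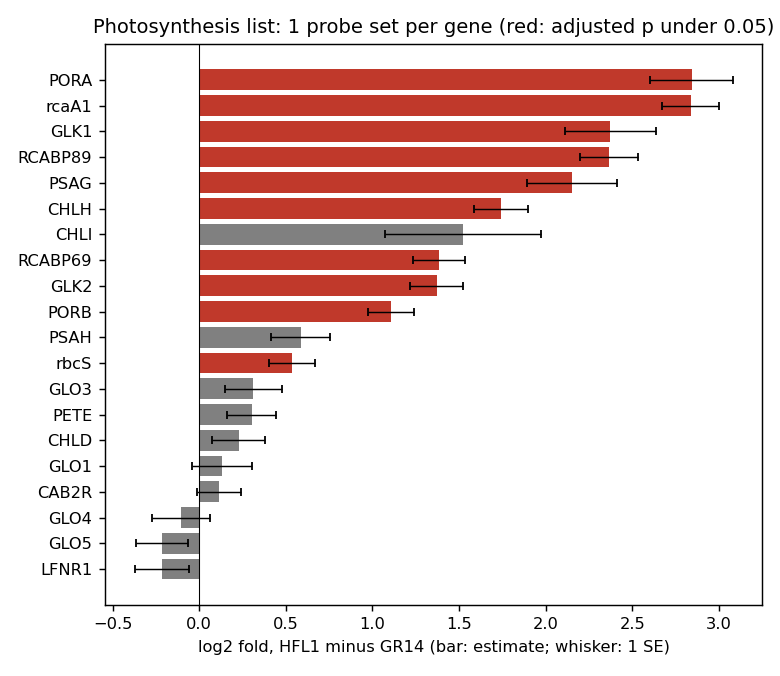
Log2 fold of HFL1 minus GR14 for the 20 tested photosynthesis genes on the probe set with the highest mean, with bars for the estimate and whiskers for 1 SE. The 10 called genes (red) are all higher in HFL1, from rbcS at 0.53 to PORA at 2.84, and 3 uncalled genes lie below 0.

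CLA1, for the enzyme that opens the plastid isoprenoid pathway, had log2 signals of 5.15, 2.71 and 2.78 in GR14 and 8.47, 8.42 and 8.41 in HFL1. Its log2 fold was 4.89 ± 0.68 (limma adjusted p 0.00394), but another CLA1 probe set gave 0.58 (adjusted p 0.318). PDX12, of the vitamin B6 synthesis family, was higher by 2.41 ± 0.28, and BGLU19, of the beta-glucosidase family, by 2.80 ± 0.20 (adjusted p 0.00173 and 0.000144). The 2 CLA1 probe sets thus differed in whether the gene passed, and the GR14 mean of the first, 3.55, lies below the GR14 array medians, whose mean is 5.92.

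Of 23 tested genes of the shikimate and phenylpropanoid routes, which supply lignin precursors, 8 were higher in HFL1, 1 was lower and 14 were not called, with a median log2 fold of 0.56. That median ranged from 0.28 without GR14 array 1 to 0.70 without HFL1 array 1, with 6 to 8 genes higher. CAD3, for a cinnamyl alcohol dehydrogenase of lignin synthesis, had log2 signals of 10.60, 10.37 and 10.67 in GR14 and 13.09, 13.07 and 12.58 in HFL1, with no overlap. The log2 fold was 2.37 ± 0.17 for CAD3 and 1.39 ± 0.13 for CAD2 (limma adjusted p 0.000167 and 0.000647). The 4-coumarate-CoA ligase gene 4CL3 was higher by 1.32 ± 0.17 and the related gene 4CLL1 by 0.97 ± 0.13 (adjusted p 0.00294 and 0.00396). The other higher genes were 4CL5, DAHPS1, which codes for the first enzyme of the shikimate route, HCT2 and 4CLL4, with log2 folds of 1.23, 0.99, 0.93 and 0.88. CHI, for the chalcone isomerase of flavonoid synthesis, was the lower gene, at -0.52, and this call was kept without HFL1 array 2 and ended when any other single array was left out. PAL and CHS had log2 folds of 0.15 and 0.48 and were not called.

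Of 10 tested genes of tryptophan, serotonin and melatonin synthesis, 2 were higher and none lower, with a median log2 fold of 0.05. ASMT3, of the acetylserotonin methyltransferase family, had log2 signals of 8.50, 7.33 and 7.96 in GR14 and 11.54, 11.78 and 11.06 in HFL1. CYP71P1, for tryptamine 5-hydroxylase, which makes serotonin, had 9.19, 8.91 and 9.11 in GR14 and 10.29, 10.30 and 10.35 in HFL1. Neither gene overlapped between the lines, and their log2 folds were 3.53 ± 0.30 and 1.24 ± 0.15 (limma adjusted p 0.000371 and 0.00193). ASMT1 had a log2 fold of 1.81 ± 0.46 that did not pass (adjusted p 0.0531). The tryptophan decarboxylase gene TDC2, upstream of CYP71P1, had a log2 fold of -0.04, and the anthranilate synthase genes ASA1, ASA2, ASB1 and ASB2 had -0.65, 0.06, 0.03 and 0.52, none of them called.

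In the aspartate family, which includes lysine synthesis, 2 of 6 tested genes were higher and none lower, and both lie on the methionine side. SAMS2, for an S-adenosylmethionine synthetase, had log2 signals of 12.26, 12.23 and 12.40 in GR14 and 13.49, 13.60 and 13.41 in HFL1, without overlap, and a log2 fold of 1.20 ± 0.12 (limma adjusted p 0.000834). Another SAMS2 probe set had 0.58 (adjusted p 0.144). METK3, for a further S-adenosylmethionine synthetase, was higher by 0.80 ± 0.19 on the log2 scale (adjusted p 0.04). Its call ended when any single array other than GR14 array 2 was left out (adjusted p 0.067 to 0.141). Among genes of lysine synthesis itself, the log2 fold was 0.12 for DAPB1, 0.57 for DAPB2, -0.05 for DAPF and -0.17 for LYSA, and none was called.

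Nitrogen genes were higher in HFL1 in 4 of 15 tested and lower in 1, with a median log2 fold of 0.34. Without HFL1 array 1, 2 were higher, and without GR14 array 3, 2 were lower. The ammonium transporter gene AMT1 was higher by 1.42 ± 0.19, and GLN1-1, for a cytosolic glutamine synthetase, by 1.22 ± 0.21 (limma adjusted p 0.00326 and 0.00955). The GLN1-1 call ended without the intensity trend in the fit (adjusted p 0.0556). AMT1 had log2 signals of 8.87 to 9.10 in GR14 and 10.09 to 10.73 in HFL1, and GLN1-1 of 10.70 to 11.46 and 12.37 to 12.48. NIA1, for a nitrate reductase, was higher by 1.00 ± 0.17 (adjusted p 0.0111), a call that ended without HFL1 array 1 (adjusted p 0.0561) and in the fit on all 12 arrays (0.137). GLT2, for a glutamate synthase, had a log2 fold of -2.36 ± 0.46 (adjusted p 0.0183) with an HFL1 mean of 5.65, below the array medians. The GLT2 call ended without GR14 array 1, GR14 array 2 or HFL1 array 3 (adjusted p 0.072, 0.0655 and 0.0565).

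Water channel genes stood higher in HFL1 in 7 of 22 tested and lower in 1, with a median log2 fold of 0.17. The higher number was 4 without GR14 array 1 or GR14 array 2 and 2 without HFL1 array 1. The plasma membrane aquaporin gene PIP1-3 had log2 signals of 11.62, 11.92 and 11.50 in GR14 and 13.42, 13.78 and 13.54 in HFL1. PIP2-2 had 11.64, 11.93 and 11.79 in GR14 and 13.52, 13.95 and 13.43 in HFL1. Both were separate between the lines, with log2 folds of 1.90 ± 0.16 and 1.84 ± 0.16 (limma adjusted p 0.000305 and 0.000469), and another PIP2-2 probe set was also called, at 3.79. The silicon channel genes Lsi1 and Lsi6 had log2 folds of 1.56 and 1.49 (adjusted p 0.0147 and 0.0291). Without HFL1 array 1 the Lsi1 call ended (0.062), and so did the Lsi6 call, since only PIP1-3 and PIP2-2 stayed called higher. TIP4-1, for a channel of the vacuolar membrane, went the other way with a log2 fold of -2.12 ± 0.26 (adjusted p 0.00203), from 12.30 to 12.73 in GR14 to 9.90 to 10.98 in HFL1.

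Sugar transport and sucrose cleavage genes were higher in 3 of 28 tested and lower in none, with a median log2 fold of 0.11. Leaving out any single array other than GR14 array 1 gave 2 higher genes, and without GR14 array 3 there was also 1 lower gene. SWEET2b, of the SWEET sugar transporters, had log2 signals of 6.03, 4.55 and 6.08 in GR14 and 9.38, 9.24 and 9.28 in HFL1, with a log2 fold of 3.74 ± 0.41 (limma adjusted p 0.00118). Its second probe set had 6.12 (adjusted p 0.00327), and GR14 was below the array medians on both, so the size is uncertain. CIN1, for a cell wall invertase, was higher by 1.42 ± 0.16 (adjusted p 0.00157). The sucrose transporter gene SUT2 was called at 0.67 ± 0.14 (adjusted p 0.0245), a call that ended when any single array other than GR14 array 1 was left out (0.0508 to 0.116), and another SUT2 probe set had -0.23. NIN1, for a neutral invertase, had a log2 fold of 0.68 and did not pass (adjusted p 0.0619).

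Metal transport genes were higher in 3 of 38 tested and lower in 2, with a median log2 fold of 0.08 that became -0.03 without GR14 array 1. The higher number was 1 without HFL1 array 1 or HFL1 array 3, and the lower number was 1 without any single array. FRO1, for a ferric reductase, had log2 signals of 7.99, 7.87 and 7.98 in GR14 and 10.58, 10.61 and 10.54 in HFL1, with SDs of 0.07 and 0.03 and no overlap. Its log2 fold was 2.63 ± 0.15 (limma adjusted p 7.23e-05). YSL13, of the metal-nicotianamine transporters, was called lower, at -0.95 ± 0.17 on the log2 scale (adjusted p 0.0112). It did not pass in the fit on all 12 arrays (0.061). MTP5 and NRAMP2 were called at 0.84 and 0.73, but MTP5 did not pass without HFL1 array 1 or 3 (adjusted p 0.068 and 0.0548) and NRAMP2 not without GR14 array 1 or 2 or HFL1 array 1 or 3 (0.0821 to 0.12). Of 7 metallothionein genes 1 was higher and 1 lower. The lower gene, MT-1-4b, had log2 signals of 8.88, 8.88 and 8.23 in GR14 and 5.81, 2.35 and 1.39 in HFL1, with a log2 fold of -5.48 ± 1.01 (adjusted p 0.0141) whose size is uncertain at these HFL1 levels. Its call ended without GR14 array 1 or GR14 array 2 (adjusted p 0.0682 and 0.0713). The higher gene, MT-1, had 0.65 ± 0.14 (adjusted p 0.0247) and did not pass without GR14 array 2, HFL1 array 1 or HFL1 array 3 (0.0716 to 0.11). MT2B was called on 1 of its 3 tested probe sets, at 0.61 (adjusted p 0.0403), and that call ended without any 1 of the 6 arrays (0.0566 to 0.142).

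**Figure D4:**
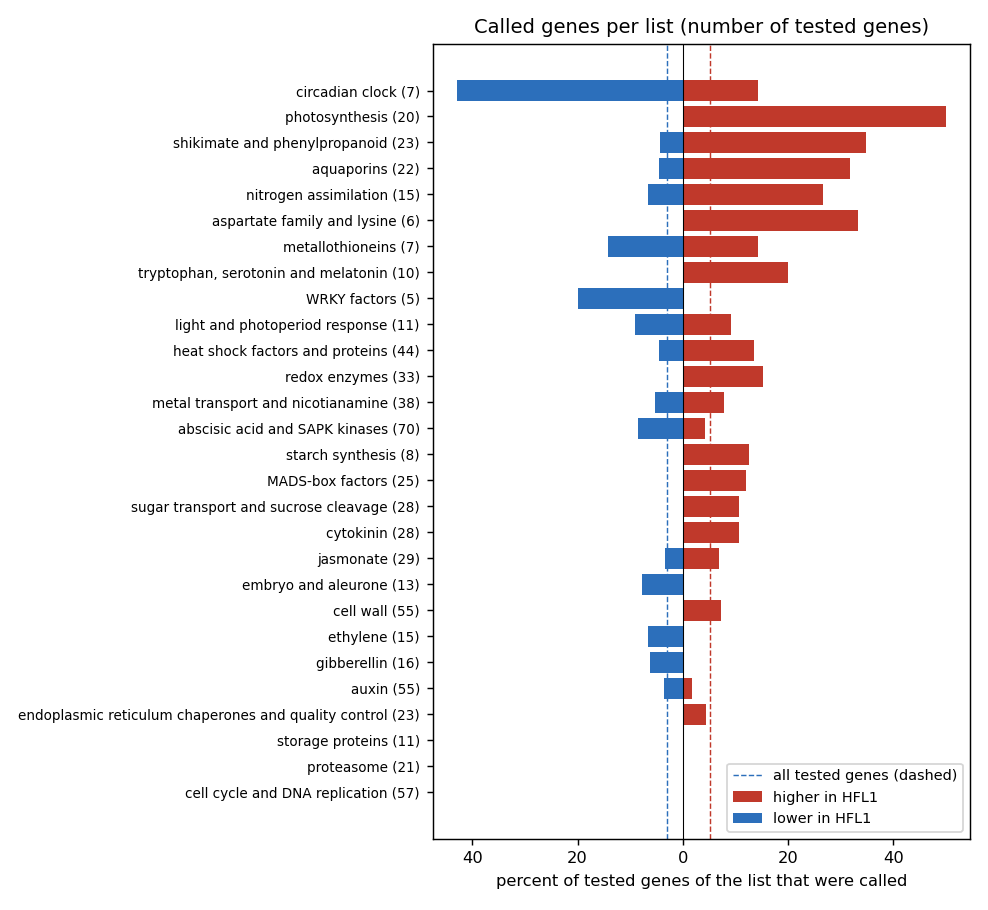
Percent of the tested genes of each list that were called higher (right, red) or lower (left, blue) in HFL1, on 1 probe set per gene, with dashed lines at the shares over all tested genes, 5.24% and 2.98%. The photosynthesis list has 10 of its 20 genes higher and none lower, and no gene was called among storage proteins, the proteasome and the cell cycle.

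The abscisic acid list, of 70 tested genes, had 3 higher and 6 lower, with a median log2 fold of -0.13. Most of its members are protein phosphatase 2C genes taken by name, not by a shown role in abscisic acid signalling. The higher genes, PP2C10, PP2C39 and PP2C48, all belong to that family. Without HFL1 array 1 there were 1 higher and 3 lower, and without GR14 array 1 there were 3 lower. SAPK9, for a kinase of abscisic acid and stress signalling, had log2 signals of 11.40, 11.39 and 11.71 in GR14 and 8.61, 8.39 and 8.47 in HFL1. Every GR14 array was above every HFL1 array, and the log2 fold was -3.01 ± 0.16 (limma adjusted p 7.23e-05). SAPK7, of the same kinase family, had -0.83 ± 0.13 (adjusted p 0.00621). The protein phosphatase 2C family was split, with PP2C39 at 1.20 ± 0.14 and PP2C12 at -0.95 ± 0.14 (adjusted p 0.00176 and 0.00466), although another PP2C39 probe set, at 0.73, did not pass.

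Jasmonate genes gave 2 higher and 1 lower of 29 tested. JAZ2, for a repressor of jasmonate signalling, had log2 signals of 10.31, 10.33 and 10.78 in GR14 and 8.08, 7.80 and 5.87 in HFL1, so the lines did not overlap but the HFL1 arrays were far apart. Its log2 fold was -3.22 ± 0.50 (limma adjusted p 0.00674). JAZ7, of the same family, had 0.76 ± 0.17 (adjusted p 0.0286), lost without GR14 array 1, HFL1 array 1 or HFL1 array 3 (0.0861 to 0.114), and the 12-oxophytodienoate reductase family gene OPR1 had 1.34 ± 0.19 (adjusted p 0.0046). WRKY76, for a stress-related transcription factor, had 9.54, 11.30 and 9.94 in GR14 and 6.40, 8.97 and 6.60 in HFL1. It was the only call among 5 WRKY genes, with a log2 fold of -2.94 ± 0.68 (adjusted p 0.0375), and its call ended when any single array other than HFL1 array 2 was left out (0.0583 to 0.129).

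Cytokinin genes were higher in 3 of 28 tested and lower in none. CKX4, for a cytokinin-degrading oxidase, had log2 signals of 5.18, 5.92 and 6.02 in GR14 and 8.71, 9.11 and 9.12 in HFL1, and its log2 fold was 3.27 ± 0.31 (limma adjusted p 0.000571) with GR14 near the array medians. LOGL3, of the cytokinin-activating LOG family, was higher by 1.95 ± 0.26 and HK5, for a histidine kinase, by 1.00 ± 0.17 (adjusted p 0.00331 and 0.0107). Genes of cytokinin activation and of cytokinin breakdown were both among the calls. Of 55 auxin genes 1 was higher, the conjugating enzyme gene GH3.2 at 1.35 ± 0.19, and 2 lower, SAUR39, of the small auxin-up RNA family, at -2.51 ± 0.27, and FIB, for an auxin synthesis enzyme, at -0.84 ± 0.17 (adjusted p 0.00469, 0.00107 and 0.0232). The FIB call ended without GR14 array 2 or 3 or HFL1 array 2 or 3 (0.0556 to 0.0863). The ethylene receptor gene ETR4 was the call among 15 ethylene genes, at -1.02 ± 0.24 (adjusted p 0.0402), and EUI1, for a gibberellin-deactivating enzyme, that among 16 gibberellin genes, at -0.85 ± 0.18 (adjusted p 0.027). Both calls ended when any single array other than GR14 array 3 was left out (ETR4 0.052 to 0.132, EUI1 0.055 to 0.105).

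Of 13 tested embryo and aleurone genes 1 was called, lower in HFL1. That gene was VP1, for a transcription factor of seed maturation and abscisic acid response, with log2 signals of 11.80, 12.28 and 12.15 in GR14 and 10.16, 10.36 and 10.03 in HFL1. The lines did not overlap, and the log2 fold was -1.89 ± 0.17 (limma adjusted p 0.000415). Over the list, 12 of 13 genes had negative log2 folds and the median was -0.49, and without GR14 array 3 the median was -1.04 with 3 genes lower. Without HFL1 array 2 there were 2 lower genes, and without HFL1 array 1 there were 1 higher and 1 lower. The dehydrin genes RAB21, RAB16B and rab25 had log2 folds of -1.80, -1.65 and -1.44 and the late embryogenesis gene EM one of -1.33, none of them called. EM ran from 13.57 to 14.93 in GR14 and from 12.12 to 14.00 in HFL1, so the lines overlapped. The summed signal of the list was 54310 to 130000 in GR14 and 34480 to 78840 in HFL1, also overlapping, with the lowest GR14 value in array 3.

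On the probe set that stands for each gene, storage protein genes gave 0 calls by limma among 11 tested. Of these 0 had an unadjusted p under 0.05, and the median log2 fold was -0.12. Their summed signal was 333400 to 473400 in the GR14 arrays and 318400 to 419500 in the HFL1 arrays. The seed albumin genes RA17 and RA5 had log2 folds of -0.67 and -0.32 (adjusted p 0.337 and 0.321). The storage protein gene RA14 had 0.87 on 1 probe set (limma unadjusted p 0.0366, adjusted p 0.193), with overlap between the lines. Its other tested probe sets had -0.18, -0.37 and -0.28. The glutelin gene GLUA-2 had -0.40 on its probe set with the lowest p (adjusted p 0.253). Another GLUA-2 probe set, with means of 15.55 in HFL1 and 15.62 in GR14, had -0.06 (adjusted p 0.831). Of 8 starch synthesis genes 1 was called, the starch synthase gene SSII-2, which was higher by 1.67 ± 0.20 (limma adjusted p 0.00175), from 7.13 to 7.44 in GR14 to 8.85 to 9.06 in HFL1. Another SSII-2 probe set had 0.48 (adjusted p 0.605). SSI and Wx, for the granule-bound starch synthase, had log2 folds of -0.87 and -0.71 on the probe sets with the lowest p and did not pass (adjusted p 0.0919 and 0.154). The other Wx probe sets had -0.55, -0.45, -0.14 and 0.27, none of them called. Without HFL1 array 2 there was also 1 lower starch gene. The summed signal of the starch list was 128100 to 164600 in GR14 and 122000 to 153800 in HFL1, overlapping like that of the storage proteins.

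**Figure D5:**
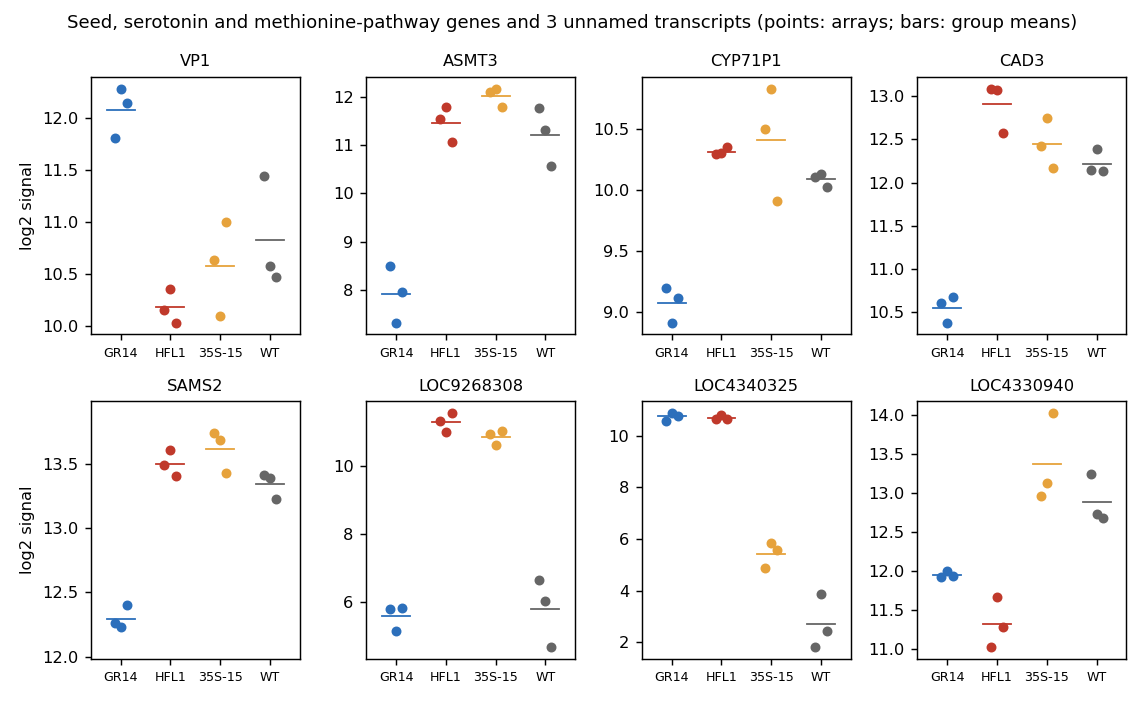
Log2 signal in each of the 12 arrays (points, 3 per group) with group means (bars) for VP1, ASMT3, CYP71P1, CAD3, SAMS2 and 3 transcripts known by a LOC identifier alone, each panel on its own scale. VP1 is highest in GR14, ASMT3, CYP71P1, CAD3 and SAMS2 are lowest there, and LOC4340325 is near 10.7 in both GR14 and HFL1.

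Heat shock genes were split, with 6 of 44 tested higher, 2 lower and a median log2 fold of 0.13. The higher number was 2 without HFL1 array 1. The lower number was 4 without HFL1 array 2 and 1 without GR14 array 1, GR14 array 2 or HFL1 array 1. HSF03, for a heat stress transcription factor, had log2 signals of 10.48, 10.29 and 9.83 in GR14 and 7.72, 6.95 and 6.11 in HFL1, and a log2 fold of -3.28 ± 0.38 (limma adjusted p 0.00151). HSP17.9B, for a small heat shock protein, was higher by 1.74 ± 0.17, and the factor gene HSF05 by 1.39 ± 0.22 (adjusted p 0.000834 and 0.00674). HSFA2D was called at 1.93 (adjusted p 0.00591) on 1 probe set and had -0.30 on another.

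Redox enzyme genes were higher in 5 of 33 tested and lower in none, or in 3 without HFL1 array 1. Trx03, of the thioredoxin family, had log2 signals of 10.15, 9.72 and 9.94 in GR14 and 12.26, 12.15 and 12.28 in HFL1. Its log2 fold was 2.29 ± 0.15 (limma adjusted p 0.000126), and that of Trx01 was 1.03 ± 0.16 (0.00659). The glutathione transferase gene GST1 had 1.82 ± 0.33 (adjusted p 0.0133), not passing without HFL1 array 1 (0.0635), and the peroxidase gene PRX112 had 1.08 (adjusted p 0.00628) with another probe set at -0.64. Among 23 endoplasmic reticulum chaperone and quality control genes the co-chaperone gene ERDJ3A was the call, at 1.52 ± 0.29 (adjusted p 0.0159), and did not pass without GR14 array 1 (0.064). DER1 and ERDJ3B had 1.00 and 0.80 and did not pass (adjusted p 0.0727 and 0.0967).

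Of 25 MADS-box genes, which control floral organs, 3 were higher and none lower. MADS14 had log2 folds of 1.23 ± 0.16 (limma adjusted p 0.00255), 0.72, 0.52 and 0.86 on its 4 probe sets, of which the first and second passed, and MADS15 had 0.88 ± 0.15 (adjusted p 0.0117) with 2 of 3 further probe sets also called. Lhs1 was called at 0.69 (adjusted p 0.0459), a call that ended without any 1 of the 6 arrays (0.0643 to 0.133). On the probe set that stands for each gene, 2 MADS-box genes passed without GR14 array 3 and 0 passed when any other single array was left out. Cell wall genes were higher in 4 of 55 tested, or 2 without HFL1 array 1 or HFL1 array 3, and lower in none, or in 1 without GR14 array 3. The expansin genes EXPB7 and EXPB6 were higher by 1.38 ± 0.19 and 1.39 ± 0.20 (adjusted p 0.00359 and 0.00457). BC1, of the COBRA-like proteins of culm strength, had 1.70 ± 0.35 (adjusted p 0.0225; 0.056 to 0.0839 without HFL1 array 1, 2 or 3). The expansin gene EXP2 had 0.62 (adjusted p 0.0463), lost without any 1 of the 6 arrays (0.0705 to 0.138).

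On the probe set that stands for each gene, limma called 0 of 57 cell cycle genes and 0 of 21 proteasome genes, of which 4 and 2 had an unadjusted p under 0.05. The median log2 folds were -0.07 and 0.16, and the first became 0.07 without HFL1 array 2. Without that array 1 cell cycle gene was higher, and without GR14 array 1, 1 proteasome gene was higher. CDKE-1, for a cyclin-dependent kinase, was called on another probe set, with log2 signals of 9.81, 10.28 and 8.56 in GR14 and 6.07, 7.25 and 6.69 in HFL1. That log2 fold was -2.88 ± 0.45 (limma adjusted p 0.00711), against -0.29 (adjusted p 0.237) on the probe set with the higher mean. The lowest p among the cell cycle genes otherwise belonged to CDKG-2 at -1.09 and CDC25.1 at 0.41 (adjusted p 0.0867 and 0.111). Other CDKG-2 probe sets had -0.44 and 0.08, neither of them called. In the proteasome list TBP1 had -0.83 and RPN7 0.35 (adjusted p 0.0729 and 0.164), and a brighter TBP1 probe set had -0.26 (0.45).

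The largest named rises also held genes outside these groups. APR-like1, of the family related to adenylylsulfate reductase, had log2 signals of 9.06, 8.59 and 9.99 in GR14 and 12.72, 13.01 and 12.54 in HFL1, a log2 fold of 3.54 ± 0.31 (limma adjusted p 0.000465). Its other probe sets had 3.48, called, and 2.23, not called. RAA1, a gene named for root architecture, had a log2 fold of 4.04 ± 0.92 (adjusted p 0.0361) from a GR14 mean of 2.62, and its call ended without any 1 of the HFL1 arrays (0.118 to 0.23). The homeobox gene Hox22 had 2.95 ± 0.41 and the MYB factor gene MYBAS1 2.93 ± 0.64 (adjusted p 0.00388 and 0.0309), both with GR14 means below the array medians. The MYBAS1 call ended without GR14 array 1 or any 1 of the HFL1 arrays (0.0724 to 0.106). Among the falls, BBD1, of a nuclease family, had 12.39, 12.04 and 12.29 in GR14 and 9.08, 9.50 and 9.45 in HFL1, a log2 fold of -2.90 ± 0.17 (adjusted p 7.23e-05). C3H37, for a zinc finger protein, and SMR1 had -2.08 ± 0.31 and -2.04 ± 0.34 (adjusted p 0.00535 and 0.00939).

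Several of the largest differences belonged to genes with a LOC identifier alone, for which the tables give no role. LOC4326757 was higher by 5.54 ± 0.55 and LOC4327573 by 5.47 ± 0.29 (limma adjusted p 0.000739 and 7.23e-05). The first had log2 signals of 10.69, 8.39 and 8.50 in GR14 and 14.84, 15.13 and 14.23 in HFL1, and its other 2 probe sets were also called, at 5.35 and 5.99. LOC4347709, LOC4337388 and LOC4334643 had log2 folds of -5.77 ± 0.92, -5.64 ± 0.63 and -4.86 ± 0.35 (adjusted p 0.00744, 0.00134 and 0.000167). Of these LOC4334643 was well above the array medians in both lines, with 14.65, 14.95 and 14.48 in GR14 and 8.96, 10.62 and 9.93 in HFL1.

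Further LOC genes had been singled out in earlier results of these data. LOC9268308 had log2 signals of 5.78, 5.13 and 5.81 in GR14 and 11.32, 11.02 and 11.57 in HFL1, and its log2 fold was 5.73 ± 0.25 (limma adjusted p 3.48e-05). Its means were 10.87 in 35S-15 and 5.77 in WT, so HFL1 and 35S-15 were high and GR14 and WT low. LOC4340325 was at 10.74 ± 0.15 (SD) in GR14 and 10.70 ± 0.10 in HFL1, against 5.43 in 35S-15 and 2.70 in WT. Its log2 fold between HFL1 and GR14 was -0.04 ± 0.14 (SE; adjusted p 0.9). LOC4331398 likewise had -0.14 ± 0.12 (adjusted p 0.533), with 13.68 in GR14, 13.54 in HFL1, 13.56 in 35S-15 and 5.92 in WT. LOC4330940 had a log2 fold of -0.63 ± 0.17 (adjusted p 0.0659), at 11.95 in GR14 and 11.32 in HFL1 against 13.37 in 35S-15 and 12.89 in WT.

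The arrays outside the comparison show on which side the remaining lines lay. For 1759 of the 1890 called probe sets (93.1%) the 35S-15 mean was nearer the HFL1 mean than the GR14 mean, against 63.7% of all tested probe sets. The WT mean was nearer HFL1 for 1640 (86.8%), against 63.0% of all tested. The share for 35S-15 was 93.1% among probe sets higher in HFL1 and 93.1% among those lower, and for WT it was 84.2% and 90.6%. These shares are descriptions, since the called probe sets were chosen by the same HFL1 and GR14 arrays.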

How the data were processed

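The authors deposited 1 linear signal intensity for each probe set, made with MAS5 per the submitters' processing notes. The MAS5 version is not given in the sources used here. Per the labels' protocols, RNA was extracted with Trizol and cRNA made from 6 ug. The trimmed mean (without the lowest and highest 2%) was the same in every array. No detection calls were used, and the number of arrays limits the precision.

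Log2 signal was fitted with limma 3.58.1 (R 4.3.3; lmFit, then eBayes, the prior variance following the mean intensity) on the 6 arrays, two-sided, with Benjamini-Hochberg adjustment over 28904 probe sets. Errors are SE of the fit or SD over 3 arrays. On simulated data for HFL1 minus GR14 over 28904 probe sets, 30 of 100 changes of 1 and 75 of 100 changes of 2 on the log2 scale were called, with 5 false calls. Only those probe sets were changed, far fewer than were called in the data, and noise was drawn independently for each value. These rates therefore need not hold for the real arrays.

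Probe sets were named from the array annotation and the RefSeq gene table of assembly ASM3414082v1. Of 57381, 22436 had 1 gene, 95 several and 34850 none, and 2458 of 17905 genes had an informative name. The members and the 28 gene lists were chosen with earlier results of these data known, and 6 genes whose names matched a list by letters alone were dropped. The naming rule took the 15 largest rises and falls of at least 2-fold without overlap, the 4 lowest p per list, the clock list, the 3 largest rises and falls among LOC genes and 4 LOC genes from earlier results. Named genes are given on the probe set with the lowest p. Genes of the lists beyond these were named to complete a count. No promoter motifs were searched, and no coordinates are given, since no build is named. The alternatives were other normalizations, filters, a pseudocount of 50, variance models, array weights, all 12 arrays, probe set choices, a test against 2-fold and leaving out each array.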

Additional observations from a re-analysis of the deposited data

How the results depend on the processing

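Counts of called probe sets were within 1.5 times of 1890 under quantile normalization, median centring, array weights, log2(signal + 50), no filter, a 70th-percentile filter, dropping probe sets ending in _x_at or _s_at, the 12-array fit and 1 probe set per gene (1595 to 2754), except that array weights gave 1262 lower. Without the intensity trend 946 were called, 624 higher and 322 lower. Tested against a 2-fold change, which is a stricter hypothesis, 166 were called, 118 higher and 48 lower. Leaving out 1 array, which leaves a line with fewer arrays, gave 825 to 1939 calls, 542 to 1192 higher, 283 to 805 lower, and 753 to 1363 of at least 2-fold. Of 88 called named genes, 64 stayed called in all 6 of these fits and none reversed; in the alternatives of processing 65 stayed called and none reversed. Without the intensity trend the calls of MYBAS1, MT-1-4b, WRKY76, GLT2, FIB, SUT2, GLN1-1, Lsi1, GST1, ETR4, NRAMP2, BC1, EXP2, JAZ7, Lhs1, METK3, MT-1, MT2B, PRR1, SE5 and ERDJ3A ended (adjusted p 0.0502 to 0.135). In the 12-array fit those of GLT2, FIB, NIA1, ETR4, YSL13, EXP2, JAZ7 and METK3 ended (0.0564 to 0.415). Without a filter EXP2, Lhs1, MT-1, MT2B and SE5 did not pass, with array weights PRR1, with median centring EXP2 and Lhs1, and with quantile normalization EXP2. Other probe sets of the same gene had the opposite sign for CHLH (-0.065), HSFA2D (-0.30), PRX112 (-0.64) and SUT2 (-0.23); the cause was not tested. Of 28 list medians, 21 kept their sign in all 15 settings tried, among them photosynthesis (0.585 to 0.907) and phenylpropanoids (0.276 to 0.695). The median changed sign in at least 1 setting for auxin, cell cycle, ethylene, metal transport, gibberellin, metallothionein and starch genes. No paired analysis was possible because the sample titles give no replicate numbers, so the numbers follow accession order and pair nothing. With 3 arrays a line and no detection calls, sizes for genes near or below the array medians are uncertain: 71 called probe sets had a GR14 mean and 39 an HFL1 mean below it.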
